A study of Bos taurus with 8 samples.

Results

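Values are given for 10 genes of milk: the caseins CSN1S1, CSN2, CSN1S2 and CSN3, the whey protein gene LALBA, and the milk trait and signalling genes DGAT1, ABCG2, GHR, PRLR and STAT5A. They were chosen by symbol, out of 26227 named genes, as all windows that carry 1 of these names together with 2 windows on each side. All 10 were found, in 136 of 902984 windows of about 3 kb, 37 of them in the milk protein genes and 99 in the other genes, and the flanks added 40 windows.
The libraries came from MIRA-Seq, in which the MBD2b/MBD3L1 complex pulls down sonicated DNA that holds methylated CpG, and the values are raw reads per window of UMD v3.1. The DNA was from dermal fibroblasts grown out of shoulder skin of heifers of 2 breeds at about the same age, 4 Holstein (dairy) and 4 Angus (beef), never treated and taken at passage 5. Each animal gave 1 culture and 1 library, the cultures are numbered within each breed from Holstein 1 and Angus 1 up to 4, and lists of values follow that order. Fibroblasts do not secrete milk, and no mammary cells were analysed here.

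In the mammary gland, prolactin and growth hormone act through PRLR and GHR, and the kinase JAK2 then activates STAT5A, a transcription factor that drives the casein genes and other milk protein genes in the milk-secreting epithelium. The caseins lie side by side in 1 cluster and form the micelles of milk, with CSN3 (kappa-casein) on the micelle surface. LALBA (alpha-lactalbumin) joins the enzyme B4GALT1 to make lactose. DGAT1 catalyses the last step of triglyceride synthesis, and ABCG2 is a membrane transporter that secretes small molecules into milk. Methylation of CpG near a gene's start generally goes with silence, while methylation inside genes is common in transcribed genes. Pull-down reads also follow the number of CpG sites in a window, the efficiency of each pull-down and the copy number of the DNA, and no input library was used, so none of these can be told apart from the methylation level.

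Depth set what could be seen. The windows of a library held 18691111 to 35525554 reads in all, with a median of 3 to 12 reads a window. A window of 3 reads, taken as the least that can be told from 0, had 0.0844 to 0.161 CPM (reads scaled by library size), by counting error only. Between 46.8 and 72.4% of a library's reads fell in its top 1% of windows, most in Holstein 1 and Angus 3. Angus 1 had the smallest share of windows with no read (2.69%) and Holstein 1 the largest (14.6%). No RNA was analysed here, so the marker genes of cell types were looked at through the reads of their first windows. These had a median of 0.215 CPM in 6 fibroblast marker genes (0.0528 to 0.341), 1.43 CPM in 5 keratinocyte markers (0.333 to 1.99), 0.579 CPM in 4 melanocyte markers (0.113 to 2.01), 1.72 CPM in 2 endothelial markers (0.550 to 2.89) and 0.523 CPM in 2 blood markers (0.301 to 0.745). The range of the fibroblast markers overlapped those of the keratinocyte, melanocyte and blood markers. Between the breeds 0 of the markers tested were called, against 0.0721% of all genes tested. Median log2 fold changes of the markers tested (Holstein over Angus, whole genes) were -0.30 for fibroblasts and 0.02 for keratinocytes. They were 0.01 for melanocytes, -0.02 for endothelium and 0.04 for blood. The fibroblast markers were split: COL1A1, COL1A2 and COL3A1 had -0.44, -0.43 and -0.30, PDGFRA 0.11 and THY1 0.00. Of these 5, 1, COL1A1, had p under 0.05 before adjustment (FDR 1.000 in edgeR), against 2.11% of all genes tested.

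The 10 genes differed widely in recovered DNA. Levels between genes were compared as reads scaled by the length of the gene's windows and by library size (RPKM), for which the median of 26153 genes was 0.174 (quartiles 0.0883 and 0.400). DGAT1 and STAT5A lay high, with 0.726 ± 0.175 and 0.557 ± 0.109 RPKM (SD, n = 8), at percentiles 89.2 and 83.5 of all genes. GHR (0.129 RPKM, percentile 39.8), PRLR (0.118 RPKM, percentile 36.4) and ABCG2 (0.0818 RPKM, percentile 22.2) lay below the median gene. Lowest were LALBA (0.0692 RPKM, percentile 16.4), CSN1S2 (0.0643 RPKM, percentile 14.4), CSN2 (0.0370 RPKM, percentile 6.19), CSN3 (0.0359 RPKM, percentile 6.03) and CSN1S1 (0.0253 RPKM, percentile 4.44).
The side on which a gene lay was the same in each library. In 8 of 8 libraries the 5 milk protein genes were below that library's own median gene, as were GHR, PRLR and ABCG2, and DGAT1 and STAT5A were above it. STAT5A exceeded GHR in 8 of 8 libraries, PRLR exceeded ABCG2 in 8, and CSN1S2 exceeded CSN2 in 8. Other neighbours in the order were not separated by all libraries: DGAT1 exceeded STAT5A, GHR exceeded PRLR, and CSN3 exceeded CSN1S1 in 7 of 8 each, ABCG2 exceeded LALBA in 6, and LALBA against CSN1S2 and CSN2 against CSN3 stood at 4 of 8. The order is one of recovered reads and was not tested.

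**Figure D1:**
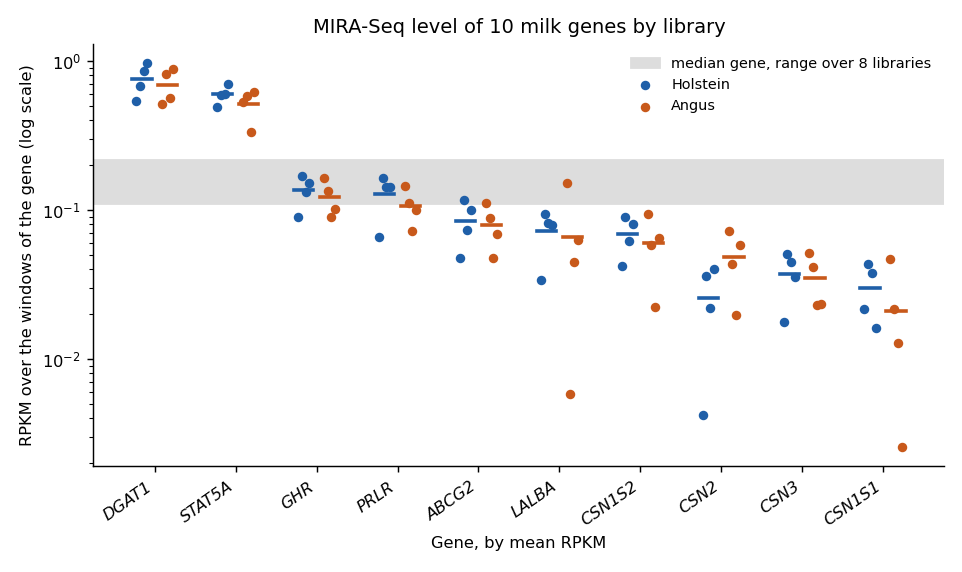
Each point is 1 library, the short bars are breed means (n = 4), the y axis is RPKM over all windows of a gene on a log scale, and the grey band is the range of the median gene over the 8 libraries. DGAT1 and STAT5A lie above the band and the 5 milk protein genes mostly below it, while Holstein and Angus points overlap in all 10 genes.

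No breed difference was called in any of the 10 genes. Reads were summed over the windows of each gene and compared with edgeR's likelihood-ratio test over all genes, with TMM library scaling and Benjamini-Hochberg adjustment; genes entered the test where 4 or more libraries reached 1 CPM, and a call needed FDR < 0.1 and FC ≥ 2. Of 19417 genes tested, 14 were called (0.0721%), 2 higher in Holstein and 12 higher in Angus; with total counts in place of TMM the split was 7 and 15. Of the 10 milk genes, 7 passed the CPM filter (74.0% of all genes did), 0 were called, and 0 had an unadjusted p under 0.05, against 2.11% of all genes tested. CSN1S1, CSN2 and LALBA had too few reads for the filter and were taken from a fit over all 25484 genes with reads, in which 34 genes were called (0.133%). In that fit 0 of the 10 were called, and 1, CSN2, had an unadjusted p under 0.05, against 2.79% of all genes. On the same 25484 genes edgeR's quasi-likelihood test called 0 in all (0%), the 10 included, and DESeq2's Wald test called 9 (0.0353%), with 0 of the 10 among them. In all 10 genes the libraries of the breeds overlapped; over the genome, all Holstein libraries were above all Angus libraries in 0.503% of genes with reads and below them in 0.130%.
The median log2 fold change (Holstein over Angus) was -0.02 over the 10 genes, 3 of them from the fit without the filter, and it was -0.02 over all 19417 genes. TMM scaling puts the median gene near 0 (it was 0.15 with total counts only), so this match says little about the milk genes. For 7 of the 10 genes the 95% interval of the difference lay within a 2-fold change in either direction; the exceptions were CSN1S1, CSN2 and LALBA, the genes with fewest reads.

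**Figure D2:**
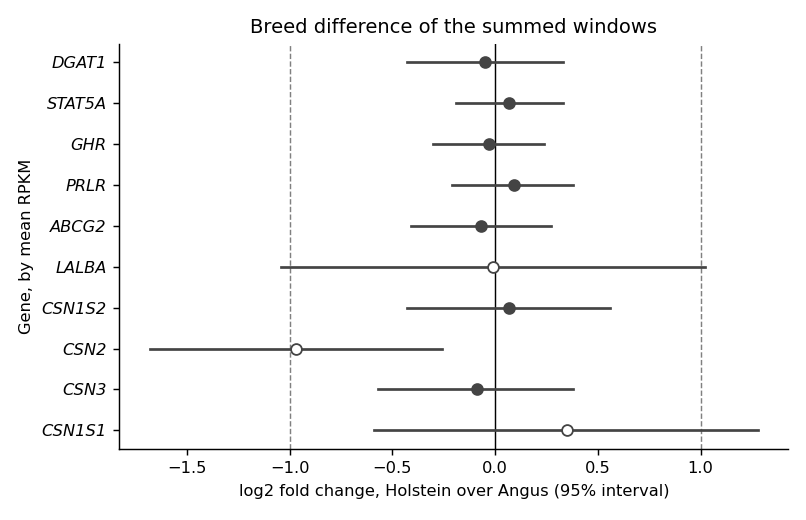
Points are log2 fold changes of Holstein over Angus for the summed windows of each gene, lines are 95% intervals from the standard errors, dashed lines mark a 2-fold difference, and open points are the genes fitted without the CPM filter. The interval of CSN2 runs from -1.68 to -0.26 and is the one that leaves out 0, while those of CSN1S1 and LALBA reach past the 2-fold line.

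The casein cluster on chromosome 6 was poor in reads. From the first window of CSN1S1 to the last of CSN3 (87139582 to 87394781) there were 85 windows. Of these, 0 passed the CPM filter, against 12.8% of all windows, and 71 had a mean CPM below that of the median autosomal window (0.292 CPM). The 35 casein windows had a median of 0.0919 CPM, and 32 of them were below the autosomal median. The 19 windows of other named genes in the stretch had a median of 0.151 CPM, with 17 below the autosomal median, and the 31 windows without a gene name had 0.204 CPM, with 22 below it. Low levels were also found in neighbours that are not caseins: STATH (statherin, a salivary protein) had a median window of 0.0629 CPM, ODAM (a protein of the enamel organ) 0.134 CPM and HSTN (histatherin) 0.151 CPM. The fourth named neighbour, LOC100298118, had 0.245 CPM, with 4 of its 6 windows below the autosomal median.
Counting error was large here. Of the 296 values that the 37 milk protein windows took in 8 libraries, 60 were 0 reads and 134 were 1 to 3 reads, 65.5% in all, against 23.0% of the values in the other 99 windows and 29.1% over the genome. The highest count in any milk protein window was 21 reads, and the deepest pile of reads at 1 base was 10.

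**Figure D3:**
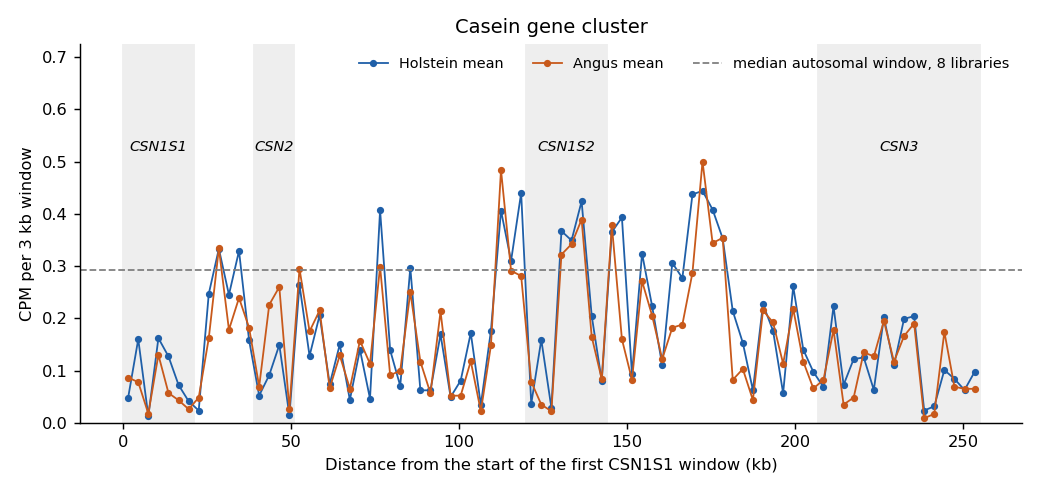
Mean CPM of each 3 kb window by breed (n = 4 each) against the distance in kb from the first CSN1S1 window; grey blocks are the windows named for the 4 caseins and the dashed line is the median autosomal window (0.292 CPM). Most windows lie below the dashed line in both breeds, with most exceptions in CSN1S2, just beside it and between it and CSN3.

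CSN1S1, which encodes an alpha casein and has 7 windows on the + strand (87139582 to 87160581), held 9, 21, 21 and 12 reads in the Holstein cultures and 28, 13, 8 and 1 in the Angus cultures. The highest and the lowest library were both Angus. The mean of the Holstein libraries was 0.624 ± 0.271 CPM and that of the Angus libraries 0.438 ± 0.395 CPM (SD, n = 4 each), a difference of 0.35 on the log2 scale (95% interval -0.59 to 1.28). Without Angus 4, the library with 1 read, the log2 fold change was -0.01, and without Angus 1 it was 0.88, so its direction was set by single libraries. Its first window had a mean of 0.0674 CPM, its last 0.0337 CPM and its highest, window 4 with coding exon 8, 0.146 CPM. These means over the libraries were below 0.161 CPM, the highest value that 3 reads took in a library. Single libraries could lie above it: window 4 held 9 reads in Holstein 3 (0.341 CPM) and 8 in Angus 1 (0.279 CPM). The 4 flanking windows ranged from 0.0358 to 0.223 CPM.

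CSN2, the beta-casein gene, has 4 windows on the - strand (87178582 to 87190581). It held 1, 10, 7 and 17 reads in the Holstein cultures and 25, 15, 7 and 13 in the Angus cultures. Scaled by TMM, these were 0.0676, 0.352, 0.239 and 0.390 CPM in Holstein and 0.795, 0.482, 0.357 and 0.680 CPM in Angus. The Angus libraries were mostly the higher ones, but Holstein 4 lay above Angus 3. Its log2 fold change of -0.97 (SE 0.36) had an FDR of 0.898 in edgeR's likelihood-ratio test without the CPM filter, so the gene did not pass. Before adjustment its p was under 0.05 by that test, by the quasi-likelihood test and by DESeq2, but not with total counts only, nor without Angus 1, where the log2 fold change was -0.77. With the 2 flanking windows on each side added to the sum, the log2 fold change was -0.45. There p was still under 0.05 before adjustment by the likelihood-ratio test, and the gene was not called.
The difference in CSN2 was not carried by the window at its start. Window 1 held 0, 0, 0 and 2 reads in Holstein against 2, 1, 0 and 0 in Angus. Window 3 of CSN2, from 87181582 and with coding exon 6, held 1, 4, 3 and 1 reads in Holstein against 11, 4, 5 and 4 in Angus, the smallest p of the 136 windows (log2 fold change -1.50, SE 0.57, FDR 0.900 in edgeR). Window 2 was the highest, with a mean of 0.204 CPM over all libraries, and the last, window 4, had 0.0608 CPM. Its flanks ranged from 0.152 to 0.284 CPM.

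CSN1S2, the other alpha casein gene, had the highest RPKM of the 4 caseins, though CSN3, with more windows, held more reads. Its 8 windows on the + strand (87259582 to 87283581) held 20, 50, 39 and 69 reads in the Holstein cultures and 65, 40, 16 and 29 in the Angus cultures. The means were 1.65 ± 0.512 and 1.44 ± 0.711 CPM, and the log2 fold change was 0.07 (95% interval -0.43 to 0.56). Reads were uneven along the gene: window 6, with coding exon 15, had 0.407 CPM and exceeded the first window (0.0573 CPM) in 8 of 8 libraries, and the last window had 0.0817 CPM. Window 2, with coding exon 1, held 1, 5, 9 and 1 reads in Holstein against 3, 1, 0 and 0 in Angus (log2 fold change 1.79, SE 0.75, FDR 1.000 in edgeR). Its flanks, 0.277 to 0.372 CPM, were above the mean of its own windows (0.193 CPM).

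CSN3, whose protein keeps casein micelles apart, held 17, 56, 57 and 61 reads in the Holstein cultures and 71, 57, 33 and 21 in the Angus cultures. Its name covers 16 windows on the + strand (87346582 to 87394781), and the files give coding exon 1 at window 1 and again at window 15. Holstein libraries had 1.79 ± 0.685 CPM, Angus libraries 1.67 ± 0.675 CPM, and the log2 fold change between them was -0.09 (95% interval -0.57 to 0.38). Its 5 windows with coding exons had a mean of 0.0513 CPM and its 11 others 0.134 CPM. The highest was window 2 (0.201 CPM), the first had 0.0754 CPM and the last 0.0812 CPM. Its flanks, at 0.0558 to 0.129 CPM, were as low as the gene.

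LALBA lies outside the cluster, on chromosome 5 (31346306 to 31352305, + strand), and has 2 windows. It held 4, 13, 13 and 17 reads in the Holstein cultures and 26, 1, 8 and 7 in the Angus cultures. The Angus libraries held both the highest and the lowest count, and the Angus spread was nearly as large as the level: 0.434 ± 0.159 CPM in Holstein and 0.396 ± 0.369 CPM in Angus. On the log2 scale the breeds differed by -0.01 (95% interval -1.04 to 1.02), and without Angus 1 by 0.73. Its second window, with coding exon 4, had 0.299 CPM and its first, with coding exon 1, 0.116 CPM. Its 2 upstream flanks, at 0.0907 and 0.183 CPM, had log2 fold changes of opposite sign (-1.83 and 1.32), each with a p under 0.05 before adjustment and an FDR of 1.000 in edgeR.
Angus 1 had the highest CPM of the 8 libraries in all 5 milk protein genes. It was also the library with the fewest windows without reads (2.69%), and the part of this in the values above was not tested.

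DGAT1 had the highest RPKM of the 10 genes. On chromosome 14 (1794547 to 1806546, + strand), its 4 windows held 128, 187, 270 and 412 reads in the Holstein cultures, which is 6.47, 8.09, 10.2 and 11.6 CPM, and 176, 281, 203 and 198 reads in the Angus cultures, which is 6.14, 9.77, 6.82 and 10.6 CPM. The lowest library was Angus 1, and both breeds covered nearly the same range. The log2 fold change was -0.05 (SE 0.19), with a 95% interval from -0.43 to 0.33. All 4 windows passed the CPM filter.
Reads rose along the gene towards its end. The means were 1.48, 1.43, 2.40 and 3.41 CPM in windows 1 to 4, and the last, with coding exon 11, exceeded the first, with coding exon 1, in 8 of 8 libraries. The rise ran on into the downstream windows named for HSF1, the heat shock transcription factor, with 7.31 and 4.08 CPM, while the upstream flanks had 0.844 CPM (SCRT1) and 1.26 CPM. In the HSF1 window beside DGAT1 the breeds were at 7.13 ± 1.63 CPM in Holstein and 7.50 ± 1.86 CPM in Angus (SD, n = 4 each). The deepest pile of reads in the 136 windows was 27, in DGAT1.

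STAT5A on chromosome 19 (43033475 to 43054474, + strand) held 205, 286, 334 and 522 reads in the Holstein cultures, or 10.4, 12.4, 12.6 and 14.7 CPM, and 320, 352, 209 and 244 reads in the Angus cultures, or 11.2, 12.2, 7.02 and 13.1 CPM. Angus 3, 1 of the 2 libraries with reads most concentrated, was the lowest in CPM before TMM scaling (TMM factor over genes 0.659). For the gene the log2 fold change was 0.07 (95% interval -0.19 to 0.33).
Its 7 windows all hold coding exons, yet their levels differed widely. Window 1, with coding exon 1, had 1.69 CPM, windows 2 and 3 fell to 0.415 and 0.231 CPM, and windows 5 and 6, with coding exons 7 and 11, had 3.28 and 3.23 CPM. Window 5 exceeded window 3 in 8 of 8 libraries, and so did window 1. The last window, with coding exon 16, had 1.72 CPM, and the flanks were 1.54 and 0.885 CPM upstream and 0.361 and 1.03 CPM downstream, the latter pair named for STAT3.
Window 5 of STAT5A was the single window of the 136 in which all libraries of 1 breed lay above all of the other in CPM. It had 3.19, 3.90, 3.67 and 3.94 CPM in the Holstein cultures and 3.14, 3.13, 2.12 and 3.16 CPM in the Angus cultures. Over the genome, 1.01% of windows with reads had all Holstein libraries above all Angus libraries and 0.243% the reverse. After TMM scaling the breeds overlapped, since Holstein 4 (3.24 CPM) lay below Angus 1 (3.30 CPM). The window passed the CPM filter, and in the fit over such windows its log2 fold change was 0.20 (SE 0.15). In the fit without the filter it was 0.21 (SE 0.25). Before adjustment its p was above 0.05 in both fits by edgeR's likelihood-ratio test.

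GHR, the growth hormone receptor gene, is on the - strand of chromosome 20 (31888318 to 32065317), with 40 windows under its name and 19 more within that span that do not carry it. It held 10.7, 20.3, 15.9 and 18.2 CPM in the Holstein cultures and 19.8, 16.1, 10.7 and 12.1 CPM in the Angus cultures. The log2 fold change of -0.03 had a 95% interval from -0.30 to 0.24. Its first window, with coding exon 1, was low (0.141 CPM, with 0 reads in Holstein 1 and Holstein 3), while window 3, which holds no coding exon, was its highest (1.06 CPM) and exceeded the first in 8 of 8 libraries. The last window had 0.690 CPM. Windows 10 and 17 of GHR had log2 fold changes of 0.77 and 1.00, with p under 0.05 before adjustment and FDR values of 1.000 in edgeR. Its flanks ranged from 0.128 to 0.564 CPM, and the 19 windows inside the span without its name had a mean of 0.264 CPM.

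PRLR, the prolactin receptor gene, lies on chromosome 20 (39070518 to 39139517, + strand) in 23 windows. It held 4.55, 11.3, 9.80 and 9.85 CPM in the Holstein cultures and 9.91, 7.68, 5.00 and 6.90 CPM in the Angus cultures. Holstein 1 was the lowest and Holstein 2 the highest, so 1 breed held both ends. Between the breeds the log2 fold change was 0.09 (95% interval -0.21 to 0.38). Coding exon 1 lies in window 15, which had 0.128 CPM, and the stretch before it held windows from 0.0460 to 0.661 CPM. The 7 windows with coding exons had a mean of 0.515 CPM and the 16 others 0.283 CPM, and the highest, window 22 with coding exon 6, had 1.09 CPM. The first window had 0.188 CPM, the last 0.460 CPM, and the flanks 0.0401 to 0.330 CPM.

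ABCG2, in 25 windows of chromosome 6 (37958282 to 38033281, + strand) and far from the caseins on the same chromosome, held 3.59, 8.74, 5.52 and 7.52 CPM in the Holstein cultures and 8.31, 6.64, 3.59 and 5.14 CPM in the Angus cultures. The log2 fold change was -0.07 (95% interval -0.41 to 0.27). Coding exon 1 lies in window 10, with 0.103 CPM, and window 21, with coding exon 10, was the highest, at 0.713 CPM and above window 10 in 8 of 8 libraries. The first window had 0.307 CPM and the last 0.0996 CPM. The upstream flank named for LOC781421 had 1.32 CPM, more than any window of the gene.

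**Figure D4:**
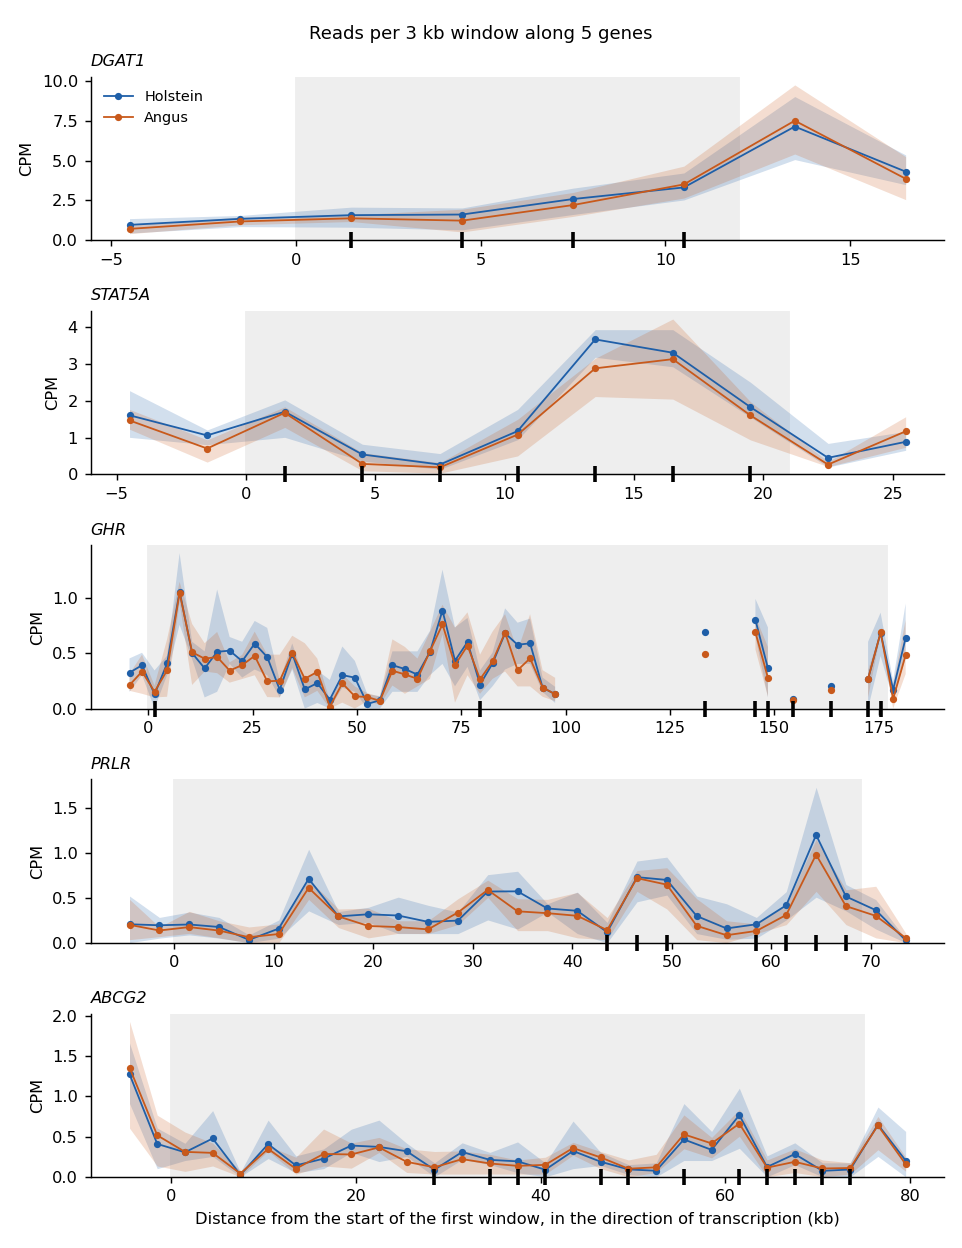
Mean CPM per 3 kb window by breed (lines, n = 4 each) with the range of the libraries (shading), against the distance in kb from the start of the first window in the direction of transcription; grey marks the span of each gene, ticks mark windows with a coding exon, and in GHR the windows not named for it are left blank. DGAT1 rises towards its end (3.41 CPM in window 4), STAT5A dips to 0.231 CPM in window 3 and peaks at 3.28 CPM in window 5, and the lines of the breeds run close together.

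The first window of a gene, which holds or lies nearest its annotated start, was often the lower one. In CSN2, CSN1S2, GHR and PRLR it was below the mean of the gene's other windows in 8 of 8 libraries, in CSN3 and DGAT1 in 7, in CSN1S1 and ABCG2 in 4 and in STAT5A in 3. LALBA, with 2 windows, had the lower first window in 6. The results for CSN2 and CSN1S2 rest on few reads, with 5 and 13 in their first windows over all 8 libraries. In Angus 1 the first window of CSN1S2 had 0.279 CPM, against a mean of 0.284 CPM in its other windows. Among 17000 genes of 3 or more windows, the first window was lower in all 8 libraries in 44.6%, so 4 of 9 milk genes was near the share of all genes. Against the median of the other windows 2 of the 9, CSN1S2 and GHR, had it in 8 of 8 libraries, where the share of all genes was 33.4%. In absolute terms the first windows of DGAT1 (1.48 CPM) and STAT5A (1.69 CPM) were well above the median first window of those 17000 genes (0.379 CPM), and those of the other 8 genes were below it. The libraries of the breeds overlapped in the first window of all 10 genes.

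**Figure D5:**
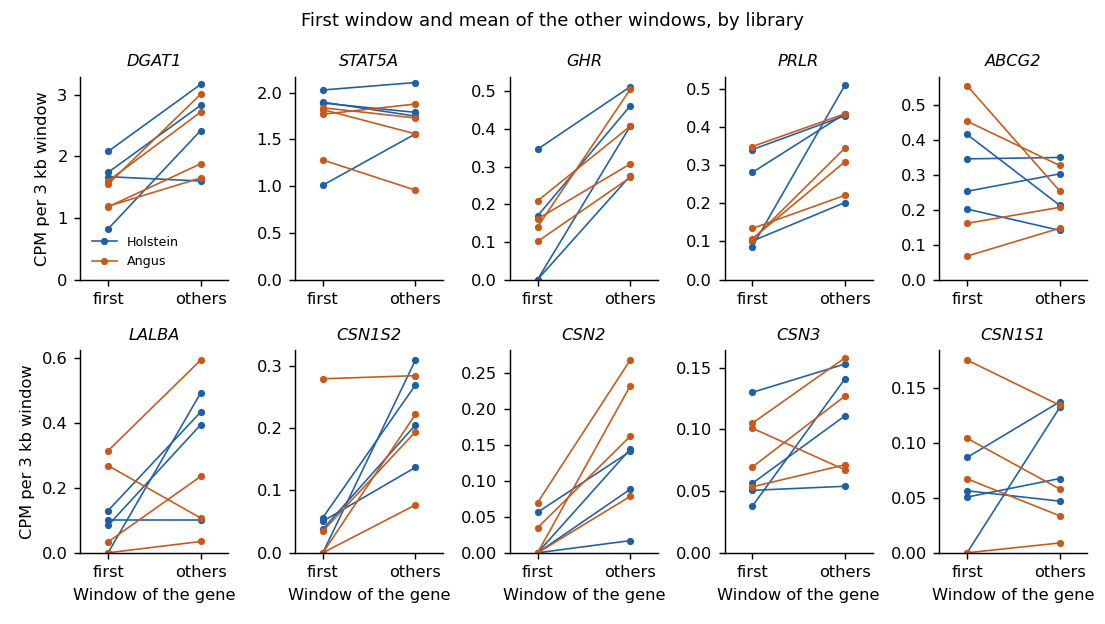
Each line joins, for 1 library, the CPM of a gene's first window and the mean CPM of its other windows, by breed, with a separate y axis for each gene. In CSN2, CSN1S2, GHR and PRLR all 8 lines rise, and in STAT5A and ABCG2 they run in both directions.

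Window by window, 11 of the 136 passed the CPM filter (8.09%, against 12.8% of all windows): 4 in DGAT1, 5 in STAT5A and 1 each in GHR and PRLR. Of these 0 were called, and 0 had p under 0.05 before adjustment (4.94% of all windows tested did), where 267 of 115360 windows were called over the genome (0.231%) by edgeR's likelihood-ratio test. Without the filter 0 of the 136 were called (0.102% of all windows), and 4 (2.94%) had p under 0.05 before adjustment, against 4.55% of all windows; the Holstein mean was the higher in 3 of these. By the quasi-likelihood test 3 of the 136 had p under 0.05, against 3.67% of all windows, and 0 were called, against 0.0564%. Among the 40 flanks 4 had p under 0.05 by the likelihood-ratio test without the filter, against 4.55% of all windows, with no FDR below 1.00 in edgeR. Holstein was the higher in 2 of the 4, and both upstream flanks of LALBA were among them.

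Other genes of lactation were counted by list, and 0 were called in any of them by edgeR's likelihood-ratio test, which called 0.0721% of all genes tested. Median log2 fold changes of the genes tested in each list lay between -0.04 and 0.12, beside -0.02 over all genes tested. Of 9 other milk proteins, 7 passed the filter, with a median percentile of 64.2 in RPKM, from PAEP (beta-lactoglobulin, 0.642 RPKM) to BTN1A1 (butyrophilin, of the milk fat globule membrane, 0.0425 RPKM). BTN1A1 had 0.0633 ± 0.0171 RPKM in Holstein and 0.0217 ± 0.00987 RPKM in Angus (SD, n = 4). Before TMM scaling all Holstein libraries were above all Angus libraries, as in 0.503% of genes with reads, with the reverse in 0.130%. The order after TMM scaling was not examined. The log2 fold change of BTN1A1 was 1.28 (SE 0.59), with p under 0.05 before adjustment and an FDR of 1.000 in edgeR without the filter.
In milk fat synthesis 12 of 13 genes were matched and tested, from FASN, the fatty acid synthase (1.65 RPKM), to CD36, a fatty acid transporter (0.0657 RPKM), with a median percentile of 65.8. All 5 genes of lactose synthesis were tested, from SLC2A1, a glucose transporter (0.501 RPKM), to UGP2, which makes UDP-glucose (0.0887 RPKM), with a median percentile of 62.3. In prolactin and growth hormone signalling 11 of 12 were tested, with a median percentile of 64.9, from SOCS3, an inhibitor of the pathway (0.728 RPKM), to JAK2, its kinase (0.0573 RPKM). Of 6 neighbours of the caseins 4 were matched, with a median percentile of 9.62, from SULT1E1, an estrogen sulfotransferase (0.0727 RPKM), to STATH (0.0306 RPKM). Only 1 of them, SULT1E1, was tested (log2 fold change -0.04). HSTN, ODAM and STATH did not pass the filter and had log2 fold changes of -0.22, -0.21 and -0.21 in the fit without it. The median percentile of the casein neighbours was below that of the 4 other lists.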

How the data were processed

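The authors filtered the reads, aligned them to UMD v3.1 (bosTau6) with NextGENe 2.3.4 after CASAVA 1.7, and deposited raw read counts per window of about 3 kb without normalization, with gene name, strand and coding exon; the deposited highest coverage per window, a signal capped at 65535, was used only to look for stacked reads. The handling of duplicates and multiply mapped reads is not given in the sources used here. CPM and RPKM were computed from the counts, with the total over windows as library size. Gene counts were sums over windows with the same symbol, chromosome and strand.
Breeds were compared in R 4.3.3 with edgeR 4.0.16 (likelihood-ratio test, as in the study's methods; TMM was chosen here, the scaling not being given in the sources used here); DESeq2 1.42.0 was an alternative. The standard error is the log2 fold change over the root of the chi-square value of its p. Figures and summaries used Python 3.11.15. Counts were also simulated for the 19417 genes and the 115360 windows that passed the filter. All genes were given 1 dispersion (0.0200) and all windows another (0.0360). The test recovered 18, 50, 50 and 50 of 50 genes changed by folds of 2, 3, 4 and 8, with 0% false calls. For the windows it recovered 21, 49, 50 and 50, with 7.61% false. Differences in dispersion between genes and in TMM scaling between libraries were not simulated. Recovery in the real data may therefore be lower, and the share of false calls higher, than in the simulation. CSN1S1, CSN2, LALBA and most windows of the milk genes did not pass the filter and are not covered.
The 10 genes and the lists were chosen with earlier results of these data known. Text values cover, for each gene, the sum, the first, last and highest window, the flanks and the windows with the smallest p; windows named beyond these were chosen after their values were seen. For lists, the genes highest and lowest in RPKM are named. P-values use a dispersion estimated in part over all genes or windows, not only the spread of the gene or window itself. With 1 culture and 1 library an animal, the spread between animals cannot be told apart from that between cultures, pull-downs or libraries. No pair of libraries of the same breed was alike within sampling noise. Intervals and floors cover counting error or spread between libraries, not PCR copies. Sequences were not used here.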

Additional observations from a re-analysis of the deposited data

Results flagged for a closer look

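In 40 groups of 4 libraries (the summed windows and the first window of the 10 genes, in each breed), 5 had 1 library far from the other 3 by Dixon's ratio, all of them in first windows; chance flags about 1 group in 20. The ratio is the gap to the nearest library over the whole range of the group.
In the first window of CSN2, Holstein 4 had 0.0563 CPM where the other Holstein libraries had 0 (ratio 1.00), a matter of 2 reads. In the first window of CSN1S2, Angus 1 had 0.279 CPM, against 0 to 0.0348 CPM in the other Angus libraries (ratio 0.875), and in that of PRLR it had 0.349 CPM, against 0.104 to 0.134 CPM (ratio 0.877). In the first window of STAT5A, Holstein 1 had 1.01 CPM, against 1.89 to 2.03 CPM (ratio 0.867), and Angus 3 had 1.28 CPM, against 1.77 to 1.84 CPM (ratio 0.864). Holstein 1 and Angus 3 were also the libraries with the largest share of reads in the top 1% of windows (69.0 and 72.4%), and their part in the STAT5A values was not tested.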

How the results depend on the processing

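The count of called genes and windows among the milk genes stayed at 0 under every alternative run, with each library left out too. Few were called anywhere: 0.0721% of genes and 0.231% of windows in the main fits, and 0 genes in all by the quasi-likelihood test. A count of 0 among so few genes therefore says little about them. The 2 genes above the median gene in all libraries also stayed 2, a count that cannot fall when a library is left out. The number of genes with the lower first window in all libraries was 4, and 2 against the median of the other windows. Of 92 log2 fold changes under other settings with all libraries, 83 kept their sign. With total counts only, which moved the median gene from -0.02 to 0.15, those of CSN3 (0.09), LALBA (0.15), DGAT1 (0.13), ABCG2 (0.10) and GHR (0.15) changed sign; LALBA also did so with the replicate block (0.28), without its first window (0.34) and with flanks added (0.14), as did GHR with flanks added (0.01). With 1 library left out, 64 of 80 kept their sign, and the values ranged from -0.01 to 0.88 in CSN1S1, -0.10 to 0.34 in CSN1S2, -0.24 to 0.08 in CSN3, -0.45 to 0.73 in LALBA, -0.20 to 0.06 in DGAT1, -0.19 to 0.07 in ABCG2 and -0.13 to 0.08 in GHR. The cause was not tested.
Over all genes the 14 calls became 0 by the quasi-likelihood test (345 with p under 0.05), 6 by DESeq2, 22 with total counts only, 34 without the filter, 9 with a CPM of 1 in all 8 samples, 23 with no fold minimum, and 8 to 21 with 1 library left out. The 267 windows became 141 by the quasi-likelihood test, 141 by DESeq2, 905 without the filter, 163 with a CPM of 1 in all samples, 153 on placed chromosomes only, 425 with no fold minimum, and 145 to 564 with 1 library left out. Animal numbers did not pair the libraries: deviations of same-numbered libraries had a mean correlation of -0.078 over genes (-0.495 to 0.174), and 1 of 8 libraries correlated best with its own number. The replicate block called 17 genes and 346 windows, 0 of them milk genes.
Chosen after seeing the data were the other alternatives repeated without the filter, the counts of called genes without first windows or with flanks, and those of the levels. Few reads limit CSN1S1, CSN2 and LALBA, whose intervals reach past a 2-fold difference.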
